A study of Mus musculus with 15 samples.

Results

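The comparison was between sorted mature thymocytes of 1 genotype that carried both coreceptors, CD4+CD8+, and cells of the same genotype that carried CD8 without CD4, called CD8 single-positive (CD8 SP). It used 6 of the 15 RNA-seq libraries of the study, 3 of each population, chosen by their labels, and was read across 16550 of 53762 genes, those with enough counts to test. The cells descended from CD45.2+ donor marrow that was Thpok fl/fl Runx3 fl/dYFP Cd4-Cre+ and Thpok-RKF-. The Cre is driven by Cd4 sequences and deletes floxed DNA in developing thymocytes, and the labels do not explain the name Thpok-RKF. Irradiated CD45.1+ B2m-/- hosts received it together with wild-type (WT) marrow that was CD45.1+CD45.2+. These hosts lack MHC class I on their own cells, among them the thymic epithelium, and the donor cells carry no such deletion by their labels. Every group was gated as CD44 low, TCR beta high, CD24 low and CD69 low, on a C57BL/6 background, and ages are not given. For reference, 3 libraries each came from WT CD4 SP cells of B2m-/- hosts, WT CD8 SP cells of I-Ab-/- hosts (which lack MHC class II), and CD4+CD8+ cells of donors with the same floxed alleles and Cre that were Thpok-RKF+. Both compared populations carry the same floxed alleles and Cre and come from the same kind of chimera. Nothing in the labels ties the replicates to different animals, so each p-value reflects the spread among these libraries, which may be technical.

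Thpok, encoded by Zbtb7b, and Runx3 are the opposing transcription factors of the CD4 and CD8 lineages: Thpok is needed for the helper fate of MHC class II-restricted thymocytes, and Runx3 silences Cd4 and drives the cytotoxic programme. Thymocytes that have passed positive selection keep reading self-peptide through their T cell receptor (TCR), and the surface receptor CD5 and the EGR and NR4A transcription factors are widely used readouts of that signal. Some cells that receive strong signals take the regulatory T (Treg) fate, defined by the transcription factor Foxp3. Mature thymocytes also divide before they leave the thymus, which is read from the marker gene Mki67 and the genes of mitosis.

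Gene totals of the 6 libraries ran from 43509770 to 48070619 counts, and 18694 to 21721 genes were detected. The share of reads outside genes was 7.23% to 9.93%. A 2-sided exact permutation test between the populations gave p = 0.7 for the totals, 0.9 for genes detected and 1 for that share, where 3 libraries against 3 cannot go below 0.1. In both populations the library numbered 1 stood apart in the immediate early gene Jun, at 105, 4.54 and 3.54 CPM (counts per 1e6 gene counts, scaled by the TMM method throughout) in CD8 SP and 55.3, 2.88 and 4.04 in CD4+CD8+. T cell identity was as labelled: Trac averaged 1159 ± 106 CPM in CD8 SP and 1313 ± 139 in CD4+CD8+ (SD, n = 3), and Cd3e 781 ± 51.1 and 777 ± 42.1. Zbtb7b, the floxed Thpok gene, lay at 2.11, 2.51 and 1.92 CPM in CD8 SP and 2.77, 2.95 and 1.67 in CD4+CD8+, against a mean of 56.8 in WT CD4 SP. Its log2 fold change from WT CD8 SP to WT CD4 SP was 7.91, so WT CD8 SP lay below both mutant populations. Runx3 lay at 247 to 306 CPM in CD8 SP and 267 to 295 in CD4+CD8+, and its log2 fold change from WT CD8 SP to WT CD4 SP was -2.84. Counts per gene do not show whether the mutant reads of both genes come from the deleted part, so they do not check the deletion.

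Between the populations 403 genes passed the test (2.44% of all genes tested, edgeR quasi-likelihood F test with Benjamini-Hochberg adjustment at 0.05). Of these, 284 were higher in CD4+CD8+ (1.72%) and 119 lower (0.719%). Among the higher genes 213 differed at least 2-fold and 114 at least 4-fold, whereas among the lower ones 53 did so at 2-fold and 12 at 4-fold. Both groups of 3 libraries did not overlap for 3496 genes (21.1%), which included all 403 that passed. Without both libraries numbered 1, 516 genes passed, 322 of them among the 403. All 20 listed mitosis genes, 7 of 20 TCR signal readouts and 10 of 14 tested Treg genes were among the higher ones, and Dntt, Socs1, Socs3, Ly6c1 and Tubb2a were among the lower ones. These are bulk libraries, in which fewer cells of a type and less RNA per cell cannot be told apart.

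**Figure D1:**
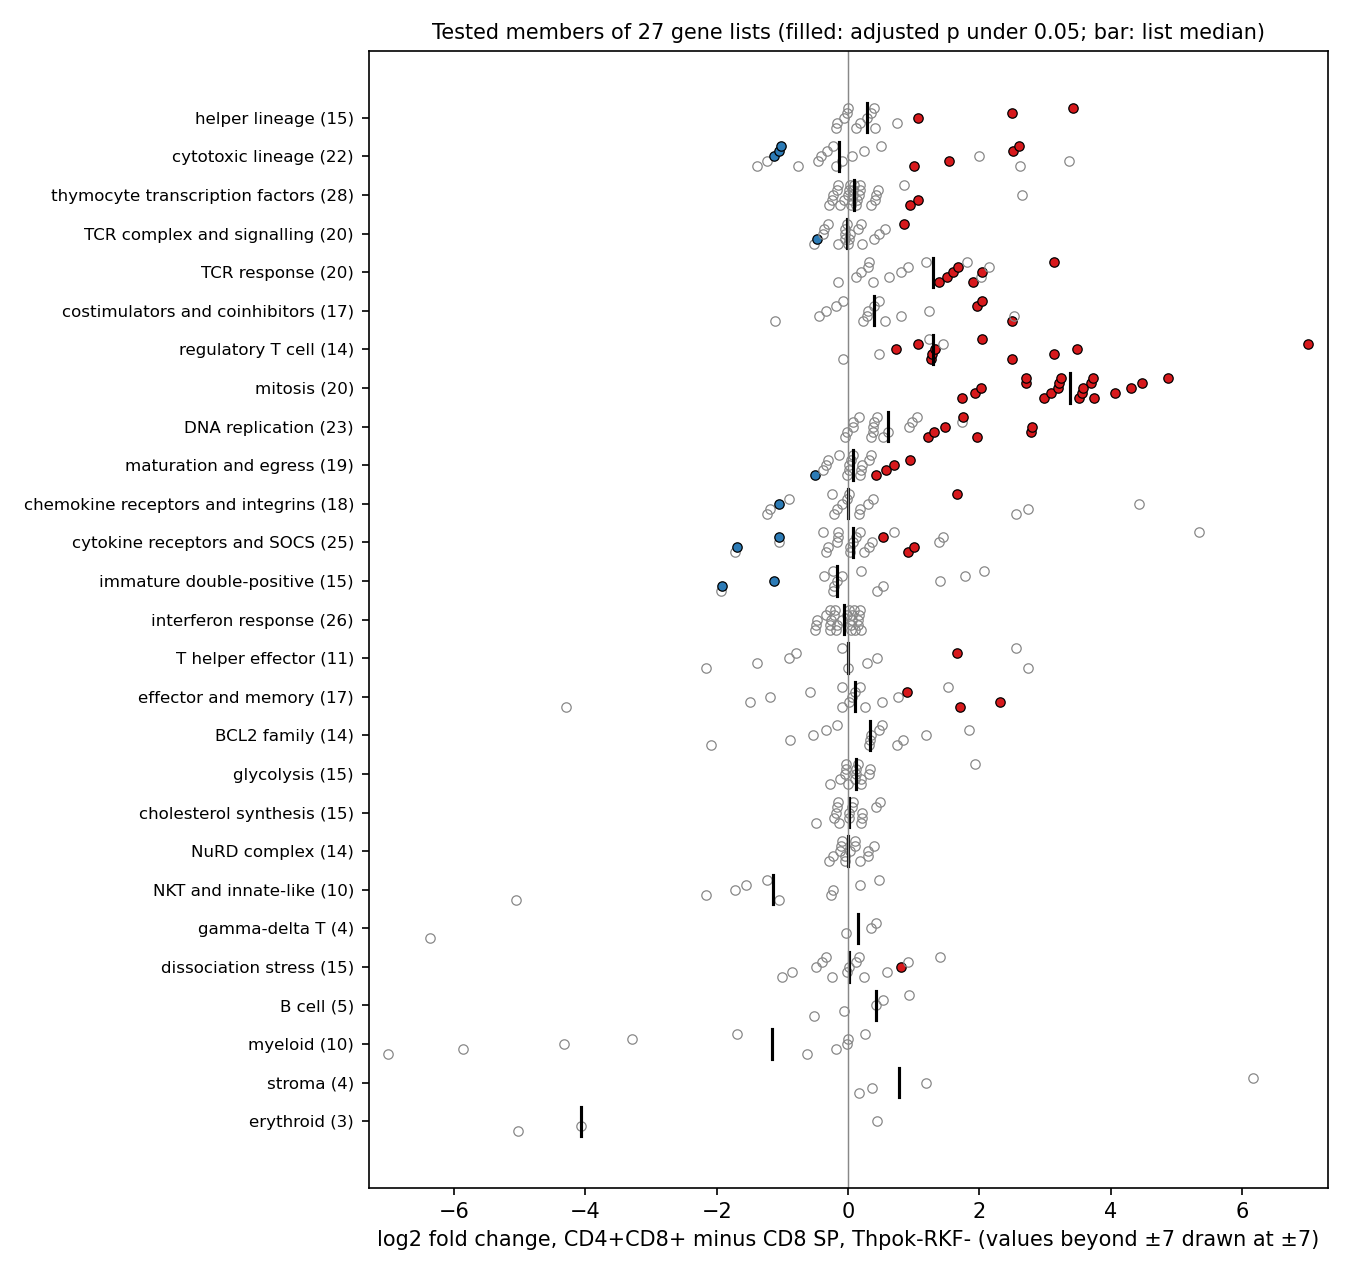
Log2 fold changes (x axis, CD4+CD8+ minus CD8 SP, Thpok-RKF-) of the tested members of 27 gene lists (y axis, number of tested members in brackets). Filled points passed the adjusted p threshold of 0.05, open points did not, and the bar is the list's median. All 20 mitosis genes lie to the right, between 1.74 and 4.88, while the 26 interferon response genes stay between -0.50 and 0.20 with no filled point.

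Mitosis genes made up the most uniform group. All 20 of 20 members passed as higher in CD4+CD8+, beside 1.72% of all genes tested. The median log2 fold change of the members was 3.38, with a range from 1.74 to 4.88, beside a median of 0 over all genes tested. All 20 members passed without both libraries numbered 1. Aurka, the kinase Aurora A, was the member that lost its call with 1 library left out, any of the 6 (adjusted p up to 0.128). Mki67, the Ki-67 proliferation antigen, read 3.12, 3.33 and 1.72 CPM in CD8 SP and 60.3, 63.3 and 57.7 in CD4+CD8+. Every CD4+CD8+ library was far above every CD8 SP library, and the 3 CD4+CD8+ libraries lay close together. The log2 fold change was 4.47 ± 0.37 (SE, adjusted p = 2.83e-05). Top2a, the topoisomerase that untangles sister chromatids, read 11.5, 12 and 10.2 CPM in CD8 SP and 105, 107 and 96.9 in CD4+CD8+, a log2 fold change of 3.20 ± 0.28 (adjusted p = 3.12e-05). Cdk1, the kinase that starts mitosis, read 1.46, 2.2 and 1.52 CPM against 17.6, 16 and 15.5 (3.24 ± 0.29). Ube2c, which supplies ubiquitin to the anaphase-promoting complex, read 1.93, 1.47 and 1.76 CPM against 22.9, 21.9 and 22.5 (3.70 ± 0.33). None of these genes overlapped between the populations, like every gene that passed, and in each the CD8 SP libraries were uniformly near the bottom of the range.

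The promoters of these 4 genes are shown because the members of the group moved together. They are the 250 bases before the transcription start in RefSeq (GRCm38.p6, a build other than the mm39 of the deposited counts, matched by symbol). Capitals mark the cell cycle homology region, which reads TTTGAA on one strand and TTCAAA on the opposite one, and the CCAAT box, which reads ATTGG on the opposite strand. Both elements are known from promoters of late cell cycle genes. Where a CCAAT and an ATTGG overlap, both are in capitals.
Mki67 (chr7:135716380-135716629, minus strand): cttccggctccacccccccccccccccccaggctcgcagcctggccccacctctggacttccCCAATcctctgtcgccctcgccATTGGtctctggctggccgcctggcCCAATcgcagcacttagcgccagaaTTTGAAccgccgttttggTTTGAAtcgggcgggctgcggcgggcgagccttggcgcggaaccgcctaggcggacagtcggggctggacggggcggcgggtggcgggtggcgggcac
Top2a (chr11:99024190-99024439, minus strand): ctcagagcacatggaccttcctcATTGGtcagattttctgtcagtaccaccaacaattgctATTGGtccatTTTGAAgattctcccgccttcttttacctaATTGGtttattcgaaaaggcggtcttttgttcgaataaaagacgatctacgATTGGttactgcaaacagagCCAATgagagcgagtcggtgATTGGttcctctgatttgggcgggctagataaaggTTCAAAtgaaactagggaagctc
Cdk1 (chr10:69352913-69353162, minus strand): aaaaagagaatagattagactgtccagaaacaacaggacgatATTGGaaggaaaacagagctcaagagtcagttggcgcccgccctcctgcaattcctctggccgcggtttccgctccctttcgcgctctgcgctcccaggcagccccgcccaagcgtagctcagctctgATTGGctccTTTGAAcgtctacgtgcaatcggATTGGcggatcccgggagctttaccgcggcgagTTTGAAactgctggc
Ube2c (chr2:164769679-164769928, plus strand): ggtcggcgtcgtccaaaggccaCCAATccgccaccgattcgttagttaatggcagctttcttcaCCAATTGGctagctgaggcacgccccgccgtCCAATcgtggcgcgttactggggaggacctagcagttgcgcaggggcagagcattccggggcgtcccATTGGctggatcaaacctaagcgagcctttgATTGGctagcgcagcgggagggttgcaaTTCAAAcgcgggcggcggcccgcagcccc
All 4 windows hold both elements. Of the 20 mitosis genes, 16 matched a RefSeq window by symbol, and 7 of these 16 windows (43.75%) held TTTGAA or TTCAAA, against 15.99% of all 32851 windows of that length and 11.12% of those of tested genes. CCAAT or ATTGG stood in 14 of the 16 (87.5%), against 33.85% and 35.28%. The E2F-like letters TTTNNCGC, searched on both strands as GCGNNAAA, stood in 1 of 16 (6.25%), against 4.28% and 6.67%. In the DNA replication list the order differed: of 20 windows from 18 of its 23 genes, 7 (35%) held the E2F-like letters, 14 (70%) CCAAT or ATTGG and 2 (10%) TTTGAA or TTCAAA. A match of letters is a description of the window and not a binding site.

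The 12 largest rises, among genes of at least 4 CPM on average, were Mki67, Lrrc32, Mxd3, Ccna2 and 8 genes of kinetochores, spindle, sister chromatid separation or cytokinesis. Cenpf, a kinetochore protein, read 1.75, 0.778 and 0.0669 CPM in CD8 SP and 28.5, 25.9 and 21.9 in CD4+CD8+ (log2 fold change 4.88 ± 0.59). The spindle protein gene Nusap1 read 3.01, 0.497 and 0.869 CPM against 30.1, 31.4 and 24.9 (4.30 ± 0.54). For both genes CD8 SP replicate 1 was the highest of its group but stayed far below every CD4+CD8+ library, and without it the log2 fold changes were 5.89 and 5.39. Kif2c, which acts on spindle microtubules, and Cep55, which acts in cytokinesis, rose by 4.28 ± 0.37 and 3.81 ± 0.54, and Ccna2, cyclin A2, by 3.73 ± 0.40. Espl1, the protease that separates sister chromatids, rose by 4.13 ± 0.82 (adjusted p = 0.0124). It read 2.69, 0.713 and 0 CPM in CD8 SP, and its value was 5.77 without CD8 SP replicate 1. The call was lost without CD8 SP replicate 2 (3.90, adjusted p = 0.0815) and when only the compared groups were fitted (adjusted p = 0.0600).

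DNA replication genes were less uniform than mitosis genes. Of 23 members 7 passed as higher and none as lower, beside 1.72% and 0.719% of all genes tested, with a median of 0.61. Rrm2, the ribonucleotide reductase subunit that supplies deoxynucleotides, read 9.77, 9.32 and 10.7 CPM in CD8 SP and 63.1, 65.5 and 76 in CD4+CD8+ (2.78 ± 0.28, adjusted p = 6.14e-05). The thymidine kinase gene Tk1 rose by 2.80 ± 0.35 and Uhrf1, which maintains DNA methylation at replication forks, by 1.75 ± 0.24. The groups did not overlap for these 3 genes, as for every gene that passed. The genes Mcm2 to Mcm7, which encode the MCM ring of the replicative helicase, did not pass: Mcm6 read 184, 191 and 193 CPM in CD8 SP against 190.0, 198 and 209 (0.07 ± 0.13), and Mcm5, the highest of the ring genes by log2 fold change, had 0.61 ± 0.20 (adjusted p = 0.184). Of the other DNA replication genes, E2f1 (1.21 ± 0.24), Tyms, the helicase cofactor gene Cdc45 (1.47 ± 0.34) and Cdc6 passed with all libraries, but each lost its call in at least 1 of the fits that left out a library, where the count ran from 4 to 6, and 4 members passed without the 2 libraries numbered 1. No test was made of the difference between both lists.

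**Figure D2:**
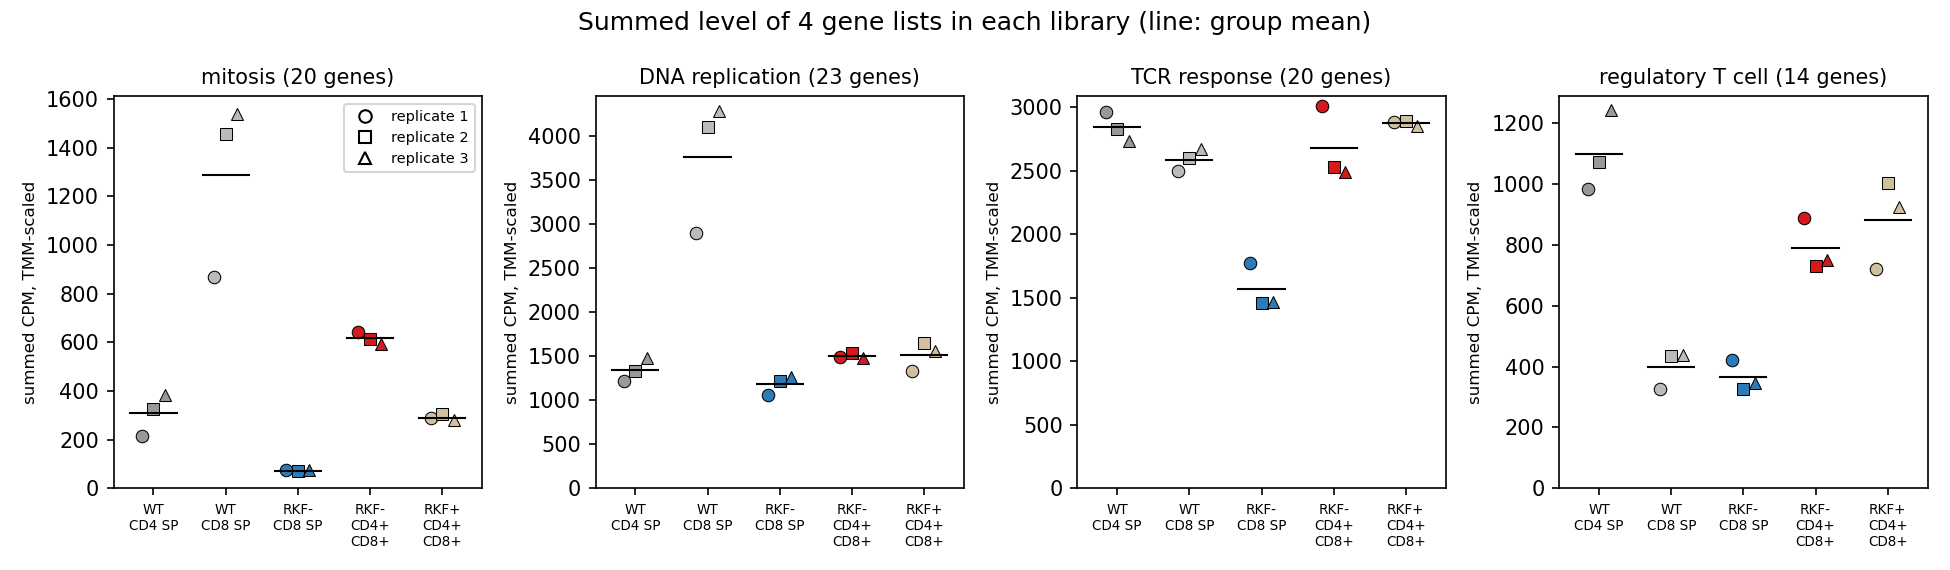
Summed CPM of the tested members of 4 gene lists (y axis, linear from 0) in each library of the 5 groups (x axis), with symbols for replicate numbers and a line at each group mean. Mitosis genes sum to 69.3 to 75.7 CPM in Thpok-RKF- CD8 SP and 594 to 644 in Thpok-RKF- CD4+CD8+, and WT CD8 SP lies above both.

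Of 20 listed TCR signal readouts 7 passed as higher in CD4+CD8+ and none as lower, beside 1.72% and 0.719% of all genes tested. The other 13 did not pass. Positive values were seen for 19 of the 20, and their median was 1.29 over the list. Without both libraries numbered 1, 8 passed, and with 1 library left out 5 or 6 did. Cd5, a receptor set by TCR signal strength, read 124, 103 and 111 CPM in CD8 SP and 452, 413 and 404 in CD4+CD8+. The groups were narrow and far apart, and Cd5 shared the smallest adjusted p of all genes tested with Ndrg1 (log2 fold change 1.90 ± 0.13, adjusted p = 5.08e-06). Egr1, an immediate transcription factor of the MAP kinase pathway, read 108, 124 and 125 CPM against 293, 395 and 393 (1.59 ± 0.18), and Egr2 25.2, 29.2 and 26.9 against 75.9, 97.5 and 87.1 (1.68 ± 0.22). Tnfrsf9, the costimulatory receptor 4-1BB, rose by 2.04 ± 0.26, and Ikzf2, encoding Helios, by 3.14 ± 0.44. None of these genes overlapped between the populations, like every gene that passed. Nr4a1, encoding Nur77, read 71.5, 44.5 and 36.9 CPM against 184, 107 and 107 (1.38 ± 0.29, adjusted p = 0.0199). Its adjusted p reached 0.117 when CD8 SP replicate 2 or 3 or CD4+CD8+ replicate 1 was left out, and was 0.000395 without both libraries numbered 1. Egr3, at 1.41 to 1.88 CPM in CD8 SP and 3.01 to 5.46 in CD4+CD8+, kept its call without CD4+CD8+ replicate 1 and had an adjusted p of up to 0.125 without any 1 of the other 5. Cd69, which the sort gate used, had 1.19 ± 0.30 (adjusted p = 0.0513). The TCR complex and its proximal signalling genes showed no common direction: of 20, 1 passed as higher, Cd6 (0.86 ± 0.14), and 1 as lower, with a median of -0.01.

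Treg genes formed the third group of rises. Of 16 listed genes 14 were tested, since Il10 and Ebi3 had too few counts. Of the 14, 10 passed as higher and none as lower, beside 1.72% and 0.719% of all genes tested, with a median of 1.30. Tnfrsf9 and Ikzf2 are also in the TCR readout list and Tnfrsf4 and Izumo1r in the helper list, so the groups are not independent. Foxp3 read 2.27, 3.85 and 2.45 CPM in CD8 SP and 50.1, 24 and 22.4 in CD4+CD8+ (3.49 ± 0.36, adjusted p = 6.05e-05). CD4+CD8+ replicate 1 was highest, and without both libraries numbered 1 the log2 fold change was 2.89 (adjusted p = 0.002). Lrrc32, the Treg surface protein GARP that binds latent TGF-beta, had 0 counts in all CD8 SP libraries and 19.7, 14.5 and 6.31 CPM in CD4+CD8+, at least 611-fold higher taking 3 counts over the CD8 SP group as the floor (adjusted p = 0.000677). Tnfrsf4, the costimulatory receptor OX40, read 16.9, 9.03 and 7.27 CPM against 96.5, 46.4 and 44.4 (2.50 ± 0.34), again with the libraries numbered 1 at the top of both groups. Ikzf4, encoding the Foxp3 partner Eos, rose by 1.32 ± 0.21, Capg by 1.27 ± 0.21 and the folate receptor 4 gene Izumo1r by 1.06 ± 0.20. Members that did not pass were Il2ra, the high-affinity IL-2 receptor chain, at 4.15, 6.01 and 5.6 CPM against 17.8, 12.8 and 12.5 (1.45 ± 0.40, adjusted p = 0.0891), Ctla4 (-0.08 ± 0.40), Tnfrsf18 (0.47 ± 0.20) and Tigit. Il2ra missed the threshold and did not overlap between the populations, which was so for 21.1% of all genes tested. Of the 10 Treg genes that passed, 8 had their highest CD4+CD8+ value in replicate 1, against 9 of the 20 mitosis genes. In CD8 SP too, replicate 1 was highest for 7 of these 10 Treg genes, against 8 of the 20 mitosis genes. Izumo1r had an adjusted p of up to 0.0544 without CD8 SP replicate 2 or CD4+CD8+ replicate 3, and Gpr83 and Nrp1 reached 0.103 and 0.105. The number of Treg genes that passed ran from 7 to 10 with 1 library left out and was 11 without both libraries numbered 1.

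**Figure D3:**
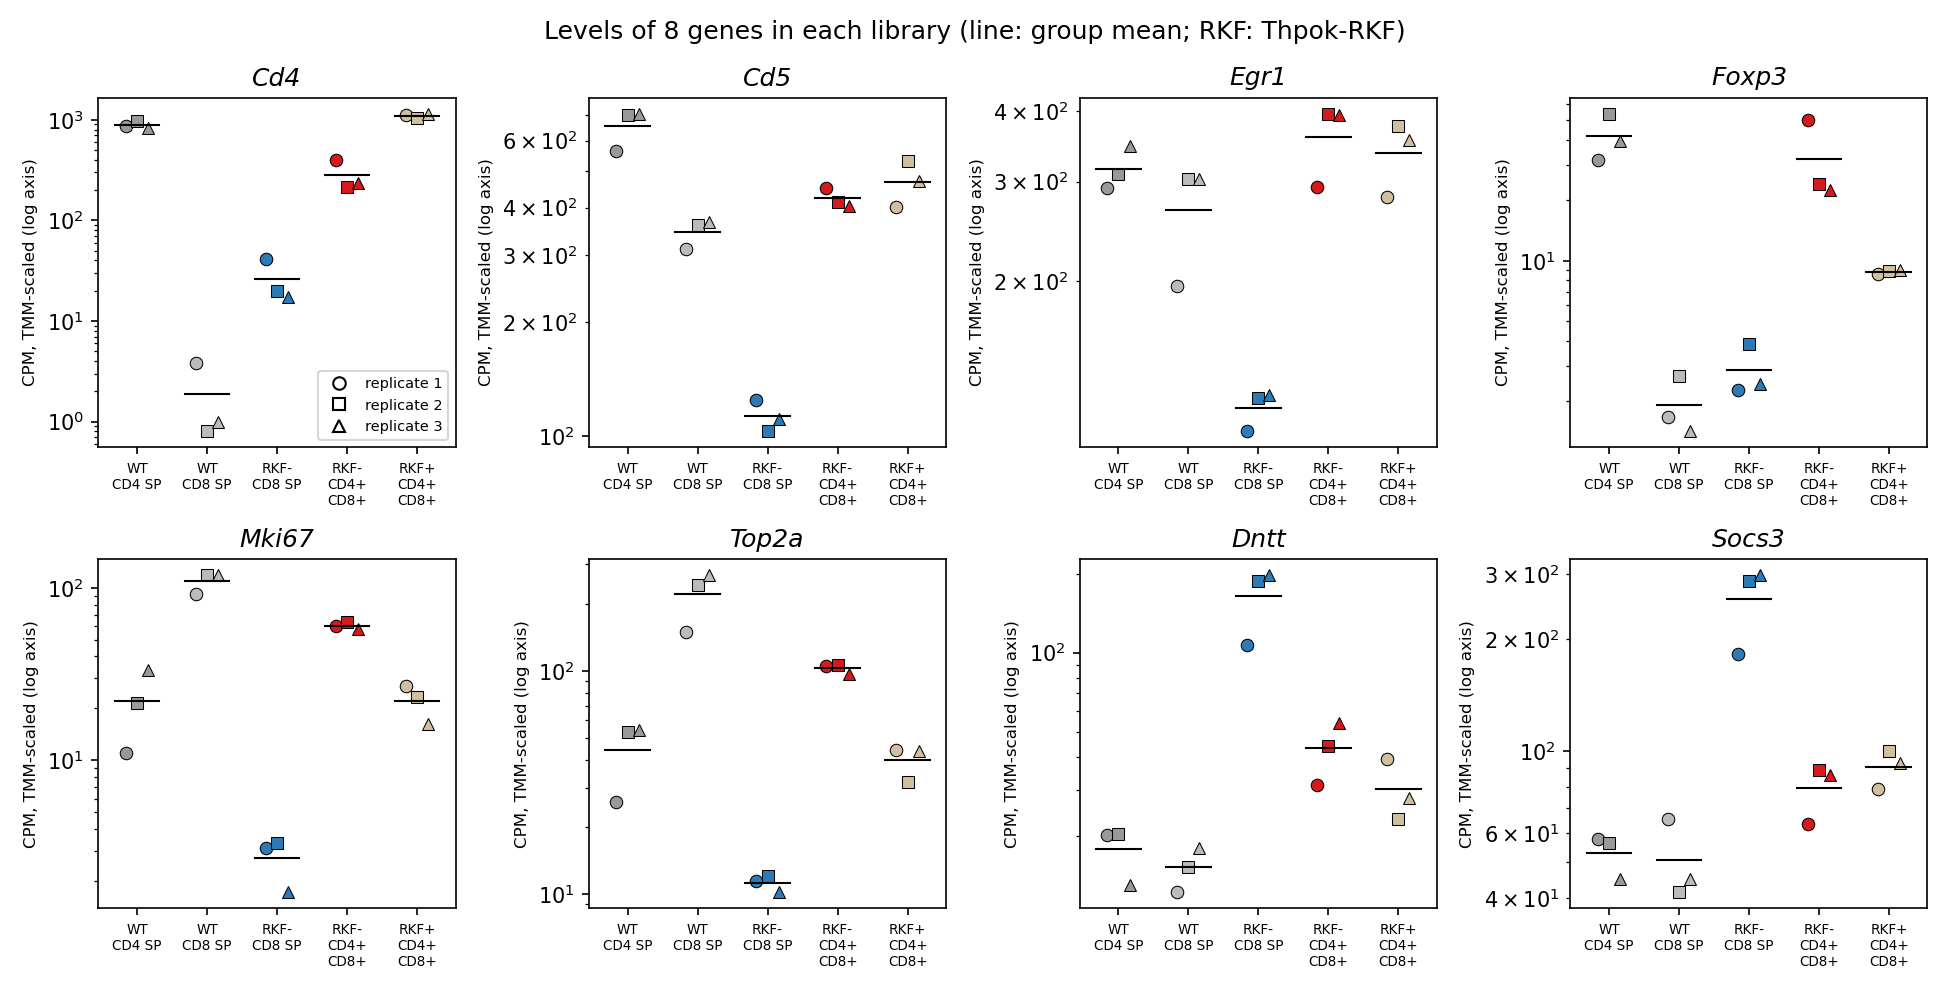
CPM of 8 genes (y axes, log scale) in each library of the 5 groups (x axes), with symbols for replicate numbers and lines at group means. The 3 red points of Thpok-RKF- CD4+CD8+ lie clear of the 3 blue points of Thpok-RKF- CD8 SP in every panel, above them for Cd4, Cd5, Egr1, Foxp3, Mki67 and Top2a and below them for Dntt and Socs3.

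Some coreceptor and lineage genes passed, beside 2.44% of all genes tested. Cd4, whose protein defined the gate, read 41.5, 19.9 and 17.4 CPM in CD8 SP and 397, 214 and 234 in CD4+CD8+, against a mean of 889 in WT CD4 SP, and its difference is what the sort selected. Cd8b1, the beta chain of the CD8 coreceptor, read 1414, 2132 and 2213 CPM against 682, 976 and 991, lower in every CD4+CD8+ library (-1.12 ± 0.19, adjusted p = 0.00335). Cd8a went the same way without passing, at 1171, 1657 and 1654 CPM against 748, 962 and 943 (-0.76 ± 0.31, adjusted p = 0.347). Of 15 helper genes 3 passed as higher, Cd4, Tnfrsf4 and Izumo1r, with a median of 0.28. Zbtb7b (0.18 ± 0.35), Gata3 (0.12 ± 0.16), Cd40lg (-0.18 ± 0.26) and Runx3 (0.06 ± 0.14) did not pass. Of 22 tested cytotoxic genes of 25 listed, 4 passed as higher and 3 as lower, with a median of -0.14. The higher ones were Dapl1 (2.60 ± 0.29), Ly6c2 (1.54 ± 0.22), the IL-2 receptor beta chain gene Il2rb (1.00 ± 0.18) and Eomes, a transcription factor of CD8 T cells, at low levels (2.51 ± 0.61, adjusted p = 0.0453, and up to 0.203 with 1 library left out, any of the 6). The lower ones were Cd8b1, Itgae, the CD103 integrin chain, at 209.7, 225 and 221 CPM against 113, 99 and 106 (-1.04 ± 0.16), and the cystatin gene Cst7 (-1.01 ± 0.15). Nkg7, a granule protein gene, did not pass (-0.46 ± 0.32). The genes of this list thus moved in both directions.

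The 12 largest falls, named by the same rule, were of varied known roles. Ly6c1, a surface antigen, read 58.7, 74.5 and 73 CPM in CD8 SP and 7.96, 8.95 and 9.91 in CD4+CD8+ (-2.94 ± 0.33, adjusted p = 0.000122), whereas its near-identical neighbour Ly6c2 was higher in CD4+CD8+, and reads of this pair may be divided uncertainly between both genes. The groups did not overlap in either gene, as in every gene that passed. Tdrd5, a Tudor domain gene best known from germ cells, read 106, 119 and 112 CPM against 10.6, 23.4 and 15.7 (-2.76 ± 0.45). Tubb2a, a beta tubulin, read 207, 196 and 206 CPM against 72.9, 62.7 and 58 (-1.65 ± 0.13, adjusted p = 1.16e-05). The nucleoside carrier Slc28a2b, which has a close relative in Slc28a2, read 909.7, 576 and 595 CPM against 209.7, 185 and 174 (-1.87 ± 0.19). The amino acid carrier Slc6a19 read 981, 1094 and 984 CPM in CD8 SP against 338, 355 and 362 (-1.54 ± 0.29). The WT means, 0.146 CPM for CD4 SP and 72.1 for CD8 SP, were below every library of both mutant populations. Its adjusted p was up to 0.056 without CD8 SP replicate 2 or any 1 of the CD4+CD8+ libraries. Grm6 (-2.15 ± 0.42), Gprin3 (-1.95 ± 0.44), Adamts14 (-1.56 ± 0.26), the carrier Slc16a5 (-1.56 ± 0.27) and the glutamate receptor gene Gria3 (-1.55 ± 0.27) completed the named falls with Dntt and Socs3, which follow, and Gprin3 lost its call when any 1 of the 6 libraries was left out (adjusted p up to 0.137). Grm6 lost its call without CD8 SP replicate 2 or CD4+CD8+ replicate 1 or 2 (adjusted p up to 0.0672).

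Genes of immature CD4+CD8+ (double-positive, DP) thymocytes were examined because those cells share the CD4+CD8+ surface pattern. Of 15 listed genes none was higher in CD4+CD8+ by edgeR (0 at an unadjusted p under 0.05, 0 by DESeq2 and 0 by limma). Lower in CD4+CD8+ were 2, Dntt and Cd8b1. Among all genes tested 1.72% passed as higher and 0.719% as lower. Dntt, the terminal transferase of TCR rearrangement, read 107, 187 and 197 CPM in CD8 SP and 31.2, 44.1 and 54.1 in CD4+CD8+ (-1.92 ± 0.28, adjusted p = 0.00136), while the WT means were 17.8 for CD4 SP and 15.2 for CD8 SP. The recombinase gene Rag1 lay at 0.713 to 2.2 CPM in CD8 SP and 2.04 to 7.39 in CD4+CD8+, Rag2 and Ptcra had 0 counts in at least 1 library of each population, and Cd24a, whose protein the gate used, lay at 0.966 to 2.83 and 1.86 to 4.40 CPM. The summed level of the list was 2491 to 3426 CPM in CD8 SP and 1625 to 1974 in CD4+CD8+, of which Cd8b1 made up 1414 to 2213 and 682 to 991 CPM.

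Of 4 listed genes for suppressors of cytokine signalling, Socs1 and Socs3 passed as lower in CD4+CD8+, and Socs2 and Cish did not pass. Socs1 read 194, 219.6 and 220.4 CPM in CD8 SP and 96.7, 107 and 103 in CD4+CD8+ (-1.05 ± 0.11, adjusted p = 6.05e-05). Socs3 read 182, 288 and 298 CPM against 63.6, 88.9 and 86.1 (-1.69 ± 0.22, adjusted p = 0.000462). Both genes, whose proteins block JAK kinases downstream of cytokine receptors, were lower in every CD4+CD8+ library. Cish, a STAT5-induced member of the family, had the opposite sign, at 6.87, 6.94 and 3.86 CPM in CD8 SP and 17.3, 14.8 and 14.1 in CD4+CD8+ (1.38 ± 0.43, adjusted p = 0.137). Its groups did not overlap, which was so for 21.1% of all genes tested. Socs2 had 1 and 59 counts over the 3 libraries of each. In the same list of 25 cytokine receptor and SOCS genes 3 passed as higher: Il2rb, Il4ra, the IL-4 receptor alpha chain (0.91 ± 0.14), and Il6st, the shared IL-6 receptor chain gp130 (0.53 ± 0.12), which lost its call when any 1 library was left out. Among maturation and egress genes 4 of 19 passed as higher and 1 as lower, beside 1.72% and 0.719% of all genes tested. Their median was 0.08. Klf2, the transcription factor behind thymic exit, read 227, 242 and 228 CPM in CD8 SP and 414, 456 and 468 in CD4+CD8+ (0.94 ± 0.12, adjusted p = 0.000347). S1pr1, the exit receptor and a Klf2 target, read 837, 669.7 and 661 CPM against 1083, 1072 and 1071 (0.57 ± 0.13), Ms4a4b rose by 0.71 ± 0.15, and Slfn2 fell by 0.50 ± 0.12. Of these 4 genes Klf2 passed in every fit with 1 library left out, while S1pr1, Ms4a4b and Slfn2 had adjusted p up to 0.154, 0.0991 and 0.21.

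In the list of effector and memory genes 3 of 17 tested genes passed as higher, beside 1.72% of all genes tested. The intermediate filament gene Vim read 190.0, 191 and 191 CPM in CD8 SP and 354, 354 and 353 in CD4+CD8+ (0.89 ± 0.10), the annexin gene Anxa2 4.29, 3.87 and 3.34 against 25.1, 15 and 17.1 (2.31 ± 0.20), and the galectin gene Lgals1 11.5, 7.91 and 10.3 against 35.4, 28.6 and 33.2 (1.71 ± 0.17). These 3 genes did not overlap between the populations, like every gene that passed. Among 28 thymocyte transcription factors 2 passed, Klf2 and Id2, an inhibitor of E proteins (1.07 ± 0.16). Of 17 tested costimulators and coinhibitors 3 passed as higher, Tnfrsf4, Tnfrsf9 and Tnfsf11, the cytokine RANKL that medullary thymic epithelium responds to (1.96 ± 0.21). Among T helper effector genes 1 of 11 passed, the chemokine receptor gene Ccr8 (1.66 ± 0.39, adjusted p = 0.0336). Its adjusted p was up to 0.175 without CD8 SP replicate 2 or 3 or CD4+CD8+ replicate 1 or 2. The dissociation stress list, in which Jun marks the libraries numbered 1, gave 1 of 15, Zfp36 (0.81 ± 0.13). In the list of 18 chemokine receptors and integrins, Ccr8 and Itgae were the genes that passed.

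Lists without a call in edgeR were interferon response, BCL2 family, glycolysis, cholesterol synthesis, NuRD complex, NKT and innate-like, gamma-delta T, B cell, myeloid, stroma and erythroid genes and the 4 classes of TCR alpha and beta V and J segments. Together they held 291 tested genes, of which 22 had an unadjusted p under 0.05 (11% of all genes did), 7 passed in DESeq2 and 1 in limma. Interferon response genes had values from -0.50 to 0.20 and a median of -0.06. Markers of other cells varied in level. Ms4a1 and Pax5 of B cells had 0 counts in all 6 libraries. Other genes of that list were present in every library. Cd79a had 48 to 172 counts per library in CD8 SP and 131 to 191 in CD4+CD8+, Cd79b 253 to 304 and 212 to 343, and Cd74 943 to 1107 and 1788 to 2120. The macrophage genes C1qa, C1qb and C1qc had 22, 93 and 159 counts summed over the CD8 SP libraries and 0, 0 and 8 over the CD4+CD8+ libraries. The summed myeloid level was 60.2 to 81.2 CPM in CD8 SP and 57.6 to 79.2 in CD4+CD8+. It was mostly Cst3, at 2529 to 3273 and 2639 to 3443 counts per library, while Lyz2 had 16 to 205 and 28 to 41. The summed NKT and innate-like level, mostly Slamf1 and Il18r1, was 155 to 167 and 114 to 123 CPM. In it the defining factor gene Zbtb16 had 145 and 120 counts over the 3 libraries of each. Higher levels came from Pecam1 of the stroma list, at 216 to 237 CPM in CD8 SP and 224 to 284 in CD4+CD8+, and from the immunoglobulin heavy chain gene Ighm, at 713 to 985 and 438 to 688. The summed B cell level, mostly Ighm, was 749 to 1016 CPM in CD8 SP and 489 to 744 in CD4+CD8+. The part of other cells in the results was not tested.

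The change across the CD4 gate was then set beside that between the WT single-positive populations, asking whether both were alike. No library is in both comparisons. The WT populations differ in CD8 as well as CD4, while both mutant populations carry CD8. Cd8a had log2 fold changes of -8.42 in WT and -0.76 in mutant cells. In WT cells 2981 genes passed (18%), 1277 higher in CD4 SP (7.72%) and 1704 lower (10.3%). Of the 284 genes higher in mutant CD4+CD8+, 52 (18.3%) were also higher in WT CD4 SP, 151 (53.2%) were lower there, and 81 did not pass. Of the 119 lower genes, 24 were higher and 30 lower in WT CD4 SP, and 65 did not pass. Foxp3 and Tnfrsf4 were higher in both, with WT log2 fold changes of 4.43 and 6.40. Mki67 and Top2a went the other way in WT cells, at -2.32 and -2.31. The WT populations also came from different hosts, so the host and the lineage cannot be told apart there.

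**Figure D4:**
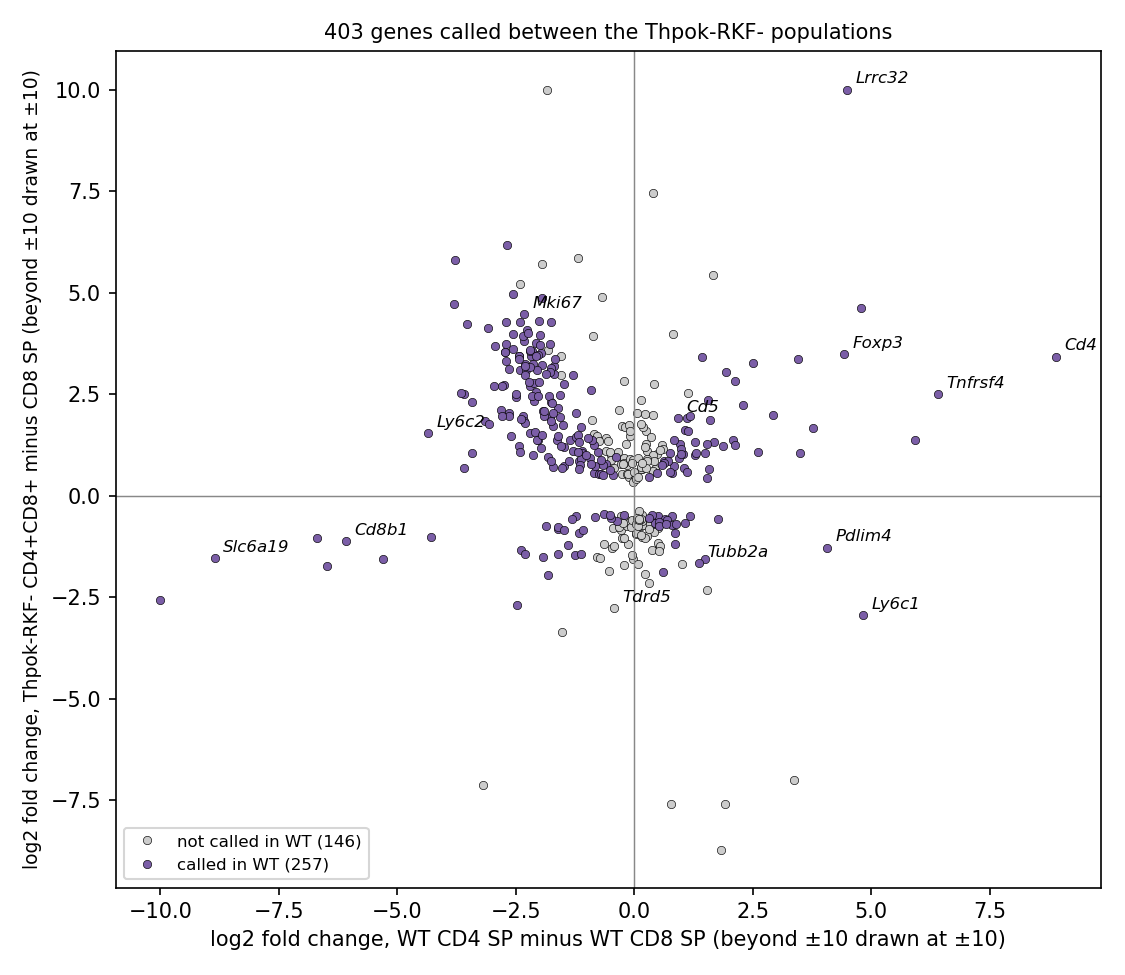
Log2 fold changes of the 403 genes that passed between the Thpok-RKF- populations (y axis, CD4+CD8+ minus CD8 SP) against their values between WT CD4 SP and WT CD8 SP (x axis), with purple points for genes that passed in WT as well. The dense cloud at upper left holds Mki67 and other genes that were higher in mutant CD4+CD8+ and lower in WT CD4 SP, and Foxp3, Tnfrsf4 and Cd4 lie at upper right.

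The difference of both differences, tested in the same model, passed for 2360 genes (14.3%), 1401 of them positive (8.47%) and 959 negative (5.79%). All 20 mitosis genes and 22 of 23 DNA replication genes were positive there, 7 of 20 TCR readouts were positive with none negative, and 4 Treg genes were positive and 4 negative. For Cd5 the difference was 0.98 ± 0.18 (adjusted p = 0.00194), and for Foxp3 it did not pass (-0.94 ± 0.47, adjusted p = 0.217). Of 14 tested Treg genes, 10 were higher in WT CD4 SP than in WT CD8 SP and 1 was lower. The members differed from those of the mutant comparison: Ikzf2 was the lower one in WT (-1.76), Capg did not pass there, and Ctla4, Il2ra and Tnfrsf18 passed in WT cells alone.

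Levels in the 5 groups show on which side the mutant populations lay. For the 284 higher genes, the mean of mutant CD8 SP was below both WT means for 256, between them for 26 and above them for 2, whereas the mean of mutant CD4+CD8+ was between them for 183, below for 62 and above for 39. For the 119 lower genes, mutant CD8 SP was above both WT means for 103, and mutant CD4+CD8+ for 46. A gene that passed for being low in one population had to lie low there, so these counts describe levels and are no test. Cd5 was an example: its means were 656 CPM in WT CD4 SP, 346 in WT CD8 SP and 467 in Thpok-RKF+ CD4+CD8+, all above the 103 to 124 CPM of mutant CD8 SP. Summed over the 20 genes of the TCR readout list, mutant CD8 SP held 1460 to 1771 CPM, and every library of the other 4 groups held at least 2493. Summed over mitosis genes, mutant CD4+CD8+ held 594 to 644 CPM, WT CD4 SP 213 to 382, WT CD8 SP 869.9 to 1537 and Thpok-RKF+ CD4+CD8+ 279 to 304. Socs3, Dntt and Tdrd5 were high in mutant CD8 SP alone by their means: Socs3 averaged 53, 50.6 and 90.4 CPM in WT CD4 SP, WT CD8 SP and Thpok-RKF+ CD4+CD8+, and Tdrd5 1.77, 2.38 and 9.89.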

How the data were processed

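Bulk RNA-seq counts of 15 libraries in 5 groups of 3 were used. Per the submitters' processing notes, the tools named were bcl2fastq 2.17, Trimmomatic, STAR, HTSeq and DESeq2, with the build mm39; the sources used here give neither the other versions nor the strand setting. The authors deposited raw counts per gene and CPM, the second being the counts scaled to 1e6 by each library's gene total (largest difference 4.99e-07). Columns that match no label (3 per table) and the 5 summary rows that name no gene (17.3% to 19.6% of reads in the 6 compared libraries), were left out.

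Genes were kept by filterByExpr (minimum count 10, minimum total 15), scaled by TMM and fitted with edgeR 4.0.16 (R 4.3.3) as 5 group means over all 15 libraries. Quasi-likelihood F tests were adjusted by the Benjamini-Hochberg method over 16550 genes, with standard errors taken from the F statistic (the absolute log2 fold change over its root). The difference of differences is a contrast of the same fit. Steps were tested on simulated counts. Alternatives were DESeq2 1.42.0, limma 3.58.1 on log2 of the deposited CPM plus 1, other scalings, filters and samples.

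The genes named were the 9 always followed (Cd4, Cd8a, Cd8b1, Zbtb7b, Runx3, Gata3, Cd5, Mki67, Foxp3), the 12 largest rises and falls that passed with a mean of at least 4 CPM and no overlap, up to 4 members of each of 27 lists by adjusted p, and the 5 largest differences of differences in each direction; this rule skipped predicted models, receptor segments, Xist and genes of the Y chromosome. Other genes, list members included, were chosen after their values were seen. A few list members that count in the totals are not reported here by name. Members and lists were chosen with earlier results of these data known. Of the listed symbols, 4 matched no gene.

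Same-numbered libraries were not treated as pairs: the correlations of their deviations were 0.221, 0.0447 and 0.0680, and the labels tie no number to a shared animal or day. Between libraries of unlike number the correlations ran from -0.134 to 0.0577. The pair numbered 1 thus had the highest value. Counting error is small at 43509770 gene counts or more per library, and the number of libraries limits the precision.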

Additional observations from a re-analysis of the deposited data

Results flagged for a closer look

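The change from CD8 SP to CD4+CD8+ in Thpok-RKF- cells was set against a WT change for 39 named genes. The WT change was from CD8 SP to CD4 SP. For 37 the difference of these changes passed the test (edgeR, adjusted p under 0.05), as it did for 14.3% of all genes tested. Some of the 39 were named for the size of this difference. Others were named for their rise or fall in the mutant comparison, which is a part of the difference. The count of 37 thus follows partly from the choice of genes and is no test against the 14.3%. Values are log2 differences, mutant change minus WT change. The 12 WT and mutant libraries are separate, and host and lineage cannot be told apart in WT cells.

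Positive differences of cell cycle genes were 9.59 for Ticrr, 7.75 for Pimreg, 7.21 for Espl1, 6.82 for Cenpf, 6.79 for Mki67, 6.54 for Nuf2, 6.45 for Ccna2 and 6.34 for Bub1. They were 6.31 for Nusap1, 6.15 for Cep55, 6.03 for Kif2c, 5.93 for Mxd3 and 5.83 for Cenpe. These genes were higher in mutant CD4+CD8+ and had lower values in WT CD4 SP than in WT CD8 SP. Within the mutant comparison the call of Pimreg was lost in 5 of 6 fits with a library left out (adjusted p up to 0.162), with the replicate block (0.0702) and without the libraries numbered 1 (0.0998). Ticrr lost its call without CD8 SP replicate 1 or 3 (up to 0.0832) and Espl1 without CD8 SP replicate 2.

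Among lineage genes the difference was 8.25 for Nkg7, 7.66 for Cd8a, 4.97 for Cd8b1 and 2.90 for Runx3, and -7.74 for Zbtb7b, -5.48 for Cd4 and -1.12 for Gata3. Of these 7 genes, Cd4 and Cd8b1 passed in the mutant comparison itself. The sort set WT CD4 SP cells without CD8 against mutant cells that carry it, which bears on Cd4, Cd8a and Cd8b1. Zbtb7b and Runx3 carry the floxed alleles in both mutant populations. The differences of Cd4, Cd8a, Cd8b1, Zbtb7b and Runx3 thus cannot be told apart from the gates or the genotype and are no independent result. Nkg7 and Gata3 are named neither in the gates nor among the floxed alleles, and the cause of their differences was not tested. Other positive differences were 8.18 for Islr, 7.31 for Slc6a19, 3.76 for Gria3 and 0.98 for Cd5. The mutant and WT changes behind them were -0.74 and -8.92 for Islr, -1.54 and -8.85 for Slc6a19, and -1.55 and -5.31 for Gria3. For Cd5 they were 1.90 and 0.92, so Cd5 alone of these genes had a positive mutant change. For Lrrc32 the fitted value was 7.74, which depends on the prior count, since mutant CD8 SP had 0 counts, and is no bound.

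Negative differences were -7.77 for Ly6c1, -5.34 for Pdlim4, -4.66 for Zscan10, -4.63 for F13a1, -3.06 for Adamts14 and -3.01 for Tubb2a. They were -2.48 for Slc28a2b, -2.46 for Grm6, -2.34 for Tdrd5, -2.16 for Dntt, -1.75 for Socs3 and -1.53 for Slc16a5. The 2 of 39 that did not pass were Foxp3 (-0.94, adjusted p = 0.217) and Gprin3 (-0.13, adjusted p = 0.931).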

How the results depend on the processing

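Against 403 genes called (284 higher, 119 lower), DESeq2 called 771 (495 higher, 276 lower), among them all 403. A required change of at least 2-fold left 89 (84 higher, 5 lower), so that 94.4% of calls were higher against 70.5%. The count of lower genes was 182 when only the compared groups were fitted, 182 in limma (63.4% of calls higher) and 185 with a term for the libraries numbered 1. Leaving out 1 library gave 216 to 311 calls, 162 to 224 higher and 54 to 87 lower; the count fell by over 1.5 times without CD8 SP replicate 2 (231) or 3 (216) or CD4+CD8+ replicate 1 (261), 2 (257) or 3 (263). Calls shared with the 403 had the same direction in every setting run, and no value changed sign as a call. With the replicate number as a block 471 genes were called, 380 of them among the 403; the numbers are not known to pair the libraries. The count of 2360 for the difference of differences stayed within 1.5 times in every setting. Of its named genes, 3 lost their calls in some setting. These were, in limma, Lrrc32 (0.07, adjusted p = 0.958) and Islr (0.53, adjusted p = 0.480), and Tdrd5 without the libraries numbered 1 (-1.86, adjusted p = 0.0689). With 1 library left out, Lrrc32 lost its call in 8 fits (adjusted p 0.0542 to 0.0719) and Tdrd5 in 6 (0.0534 to 0.1, the last with -1.64 without WT CD4 SP replicate 1). Causes were not tested. The number of libraries, 3 a group, limits the precision more than their depth.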

Other observations

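The genes here were chosen after their values were seen and are given as values. Of 16 tested clock genes none passed as higher (edgeR), 3 passed as lower and 13 had negative values, with a median of -0.35. Of all genes tested 0.719% passed as lower. Nr1d2, a repressor of the clock loop, read 44.8, 63.6 and 55.7 CPM in CD8 SP and 26.2, 26.1 and 20.1 in CD4+CD8+ (-1.18 ± 0.29, adjusted p = 0.0495). Rora, an activator of the same loop, read 65.1, 61.9 and 57.6 CPM against 29.5, 28.4 and 31.3 (-1.05 ± 0.23, adjusted p = 0.0263). Arntl, encoding BMAL1, fell by 0.60 ± 0.14. The groups did not overlap in these genes, as in every gene that passed. Nr1d2 and Rora lost their calls when any 1 of the 6 libraries was left out and Arntl for any but CD8 SP replicate 1 (adjusted p up to 0.24, 0.111 and 0.177). Without both libraries numbered 1, Nr1d2 and Arntl had adjusted p of 0.138 and 0.0548. The time of day of each sort is not given.

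Of 20 lysosomal hydrolase genes 4 passed as lower, beside 0.719% of all genes tested, with a median of -0.08. The cathepsin D gene Ctsd read 337, 392 and 394 CPM against 215, 264 and 253 (-0.62 ± 0.11), and Lipa, the acid lipase gene, fell by 0.76 ± 0.15, Neu1 by 0.61 ± 0.13 and Gaa by 0.70 ± 0.17. Each lost its call in 2 or more of the 6 fits that left out a library, with adjusted p up to 0.053 for Ctsd, 0.104 for Lipa, 0.114 for Neu1 and 0.238 for Gaa.

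Of all genes tested 1.72% passed as higher in CD4+CD8+. Beyond the mitosis list, all 4 genes of the NDC80 kinetochore complex passed as higher, as did 7 of 20 CENP centromere genes, 4 of 6 condensin NCAP genes and 8 of 28 KIF kinesins. With 1 library left out these counts were 3 or 4, 3 to 5, 2 to 4 and 6 to 8. Kif23, a kinesin of the midbody, was the kinesin that passed as lower, with means of 133 CPM in CD8 SP and 94.2 in CD4+CD8+ (-0.50 ± 0.11, adjusted p = 0.0291). It kept that call in 1 of the 6 fits with a library left out, that without CD8 SP replicate 2 (adjusted p otherwise up to 0.147), and lost it without both libraries numbered 1 (0.155).

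Single genes picked for their values were Cd200, a surface glycoprotein gene, at 8.62, 8.56 and 10.5 CPM in CD8 SP against 35.8, 33.8 and 31.4 (1.87 ± 0.17, adjusted p = 3.12e-05), and P2rx7, the ATP-gated channel, at 0.853, 2.25 and 1.14 against 13.3, 9.77 and 12 (3.04 ± 0.40). Nt5e, encoding the AMP-hydrolysing enzyme CD73, rose by 1.62 ± 0.35 and Cd101 by 1.27 ± 0.23. Of these 4, Nt5e lost its call when any 1 library was left out (adjusted p up to 0.115). The MAP kinase phosphatase gene Dusp4 rose by 2.35 ± 0.39, and Nab2, a corepressor of EGR factors, by 1.07 ± 0.24, the second losing its call in 4 of the 6 fits with a library left out (adjusted p up to 0.164).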
